A study of Homo sapiens with 15 samples.

Results

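The kinesin genes of MDA-MB-231 cells were followed through knockdown of YAP, TAZ or both. The members were all rows of the deposited gene table whose symbol is KIF or KIFC followed by a digit, without antisense names, and 33 of the 18858 genes met that rule. They were divided by known role into 12 mitotic kinesins, 12 transport kinesins and 9 others. The mitotic genes KIF2B and KIF4B and the transport genes KIF1A, KIF5A and KIF5C, which the role lists also name, were not analysed here.

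MDA-MB-231 is an established human breast adenocarcinoma line with wild-type genotype in the labels, and the study asked how YAP and TAZ, the co-activators that the Hippo pathway restrains, bear on invadopodia and matrix degradation. The 15 RNA libraries made 5 groups of 3: untransfected cells (Control), cells given a non-targeting siRNA pool (siControl), and cells given the pool against YAP (siYAP), against TAZ (siTAZ) or both pools together (siYAP+TAZ). Knockdown lasted 48 h, and the cells then spent 5 to 6 h on gelatin-coated plates before lysis. The co-knockdown cells carried both targeting pools, so the total amount of siRNA also differed between them and the single knockdowns. The libraries of a group came from independent sets of experiments by the study's supplement, but no source used here says which library belongs to which set. Each library is named by its group and its number in the labels.

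Kinesins are motor proteins that convert ATP hydrolysis into movement or force along microtubules, or into disassembly of microtubule ends. Mitotic kinesins build the spindle, move chromosomes and complete cytokinesis, and many of them are transcribed mainly in the G2 and M phases of the cell cycle. Transport kinesins carry vesicles, organelles and ciliary cargo, mostly towards microtubule plus ends, and in invasive cells some of them deliver vesicles to podosomes and the cell front. KIF17 belongs to the kinesin-2 family with KIF3A, KIF3B and KIF3C. It works as a homodimer and is best known for carrying glutamate receptor vesicles in dendrites and for its part in cilia.

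The libraries held between 18696737 and 30107312 counted reads, with a median of 22902846. Markers of the line were present in every library, VIM at 21578 to 38756 reads, whereas the blood marker PTPRC had at most 6 and PGR at most 7. ESR1, CDH1 and EPCAM were listed with PGR as low or absent in this line. ESR1 and CDH1 were not among the genes counted, but EPCAM had 209 to 389 reads. The knockdowns were partial. YAP1, the gene of YAP, stood at 23.4%, 64.0% and 17.6% of the siControl mean in siYAP libraries 18, 23 and 28, and at 51.8%, 51.0% and 41.5% in siYAP+TAZ libraries 20, 25 and 30. Its log2 fold change in siYAP was -1.51 (SE 0.37, adjusted p = 0.099). With 1 library left out it ranged from -2.27, without siYAP library 23 (adjusted p = 3.3e-08), to -1.20. It passed in 4 of the 15 other fits. In siYAP+TAZ the log2 fold change of YAP1 was -1.06 and did not pass, though it did in 3 of the 15 other fits. WWTR1, the gene of TAZ, stood at 45.8%, 14.1% and 28.8% in siTAZ libraries 19, 24 and 29 (log2 fold change -1.74, SE 0.31, adjusted p = 0.019), and at 62.7%, 62.1% and 71.0% in siYAP+TAZ (log2 fold change -0.62, SE 0.30, adjusted p = 0.20). The call for WWTR1 in siTAZ was lost without siControl library 17, siControl library 22 or siTAZ library 29 (adjusted p between 0.067 and 0.073), and with only the groups compared in the fit (adjusted p = 0.17).

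Of the 33 kinesin genes, 20 averaged at least 1000 normalized counts over all libraries (reads divided by a library size factor) and 4 averaged under 100. 32 had at least 5 reads in every library, and the exception was KIF25, with 1 to 12 reads. By RPKM (reads scaled for exon length and library size, computed from the counts), the most abundant in Control cells was KIFC1, a minus-end motor that clusters centrosomes, at 84.6 ± 4.43 (SD, n = 3). KIF5B, the heavy chain of conventional kinesin, reached 72.6 ± 6.75. KIF2C, which takes apart microtubule ends at kinetochores, reached 59.6 ± 1.72, and KIF1C, a vesicle motor, 51.0 ± 4.07. KIF17 was towards the low end with 0.972 ± 0.181 RPKM, next to KIF27 at 1.09 ± 0.206 and KIF16B at 0.888 ± 0.0742, ranges that overlap. KIF26B, KIF21B and KIF25 were far lower, at 0.0709 ± 0.0218, 0.0653 ± 0.0276 and 0.0582 ± 0.0168. All kinesins together took 0.279% to 0.320% of the reads in a library.

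KIF17 was lower in all 3 knockdowns than in both kinds of control cells, and it was the only kinesin gene past both thresholds of the study's methods (an adjusted p not above 0.05 together with a log2 fold change of 1 or more in size, called differentially expressed here). Its normalized counts were 120.9, 104.9 and 82.8 in Control libraries 16, 21 and 26, and 110.6, 105.4 and 105.1 in siControl libraries 17, 22 and 27. They were 53.6, 51.7 and 44.2 in siYAP libraries 18, 23 and 28, and 60.3, 33.99 and 39.9 in siTAZ libraries 19, 24 and 29. In siYAP+TAZ libraries 20, 25 and 30 they were 27.4, 62.3 and 33.95. The highest knockdown library, siYAP+TAZ 25, thus lay below the lowest control library, Control 26, and no knockdown group overlapped the siControl group. Of all genes, 18.2% lay wholly below siControl in this way after co-knockdown, 9.86% with siYAP and 10.2% with siTAZ. In bulk RNA, fewer cells with a transcript and less of it per cell cannot be told apart.

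**Figure D1:**
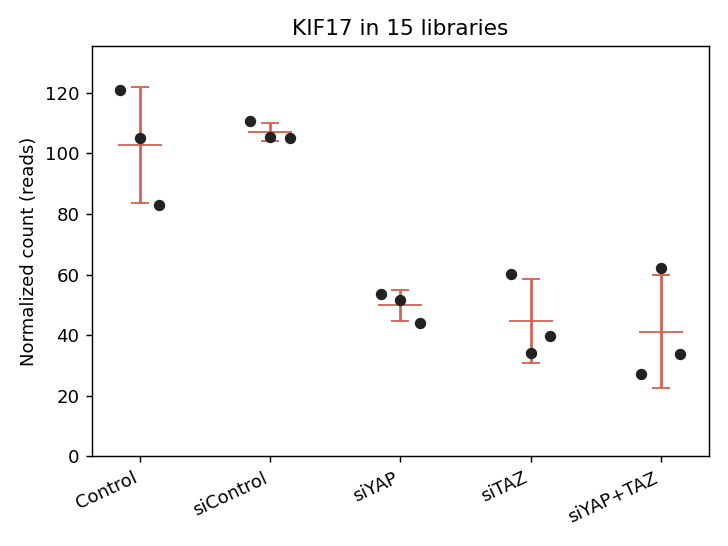
Normalized KIF17 count (y axis, reads divided by the library size factor, from 0) in each of the 15 libraries (points), with the mean and SD of each group of 3 (bars). All 9 knockdown libraries lie between 27.4 and 62.3, and the 6 control libraries between 82.8 and 120.9.

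Against siControl the log2 fold change of KIF17 was -1.37 in siYAP+TAZ (SE 0.25, 95% interval -1.91 to -0.84, adjusted p = 0.00094), which is 0.386 times the siControl level. It was -1.10 in siYAP (SE 0.24, -1.61 to -0.58, adjusted p = 0.038) and -1.23 in siTAZ (SE 0.25, -1.76 to -0.70, adjusted p = 0.014). Of all 18858 genes, 0.318% were differentially expressed and lower after co-knockdown, 0.0371% with siYAP and 0.0477% with siTAZ. By size of the decrease KIF17 ranked 217 among all genes in the co-knockdown, 206 with siYAP and 345 with siTAZ. The 3 comparisons share the siControl libraries. Against the untransfected Control cells the values were -1.32 (adjusted p = 0.0013), -1.05 (0.040) and -1.18 (0.016), and siControl did not differ detectably from Control (log2 fold change 0.05, SE 0.23, 95% interval -0.44 to 0.54).

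KIF17 rested on few reads, 98 to 130 in siControl and 23 to 58 in siYAP+TAZ. The siYAP+TAZ call held when any 1 of the 6 libraries compared was left out (log2 fold change between -1.79 and -1.17). The siYAP call was lost whichever of the libraries siControl 17, 22 and 27 and siYAP 18, 23 and 28 was left out, with adjusted p between 0.085 and 0.16 and log2 fold changes between -1.15 and -1.02. The siTAZ call was lost without siControl 17, siControl 22, siTAZ 24 or siTAZ 29 (adjusted p between 0.056 and 0.12) and kept without siControl 27 or siTAZ 19.

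No difference in KIF17 between the co-knockdown and either single knockdown passed the test. Directly compared, siYAP+TAZ and siYAP differed by a log2 value of -0.28 (SE 0.27, 95% interval -0.84 to 0.28, adjusted p = 0.64), and siYAP+TAZ and siTAZ by -0.14 (SE 0.28, -0.72 to 0.44, adjusted p = 0.84). Neither interval excludes a further decrease below the level of the single knockdown. Both values depended on single libraries: against siYAP the difference was -0.70 without siYAP+TAZ 25, -0.07 without siYAP+TAZ 20 and -0.15 without siYAP+TAZ 30, and against siTAZ it ranged from -0.55 without siYAP+TAZ 25 to 0.16 without siTAZ 19. The interaction, the log2 fold change of the co-knockdown minus those of siYAP and siTAZ, was 0.96 for KIF17 (SE 0.37, 95% interval 0.18 to 1.73). Its unadjusted edgeR p was 0.018 and its adjusted p 0.73, so it did not pass. It was 0.53 without siYAP+TAZ 25 and up to 1.26 with another library left out.

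KIF17 lies on chromosome 1 at chr1:20664014-20718017 (GRCh38, minus strand) with 4470 annotated exonic bases. No exon of another gene overlaps its exons, and none of its 50-base stretches recurs in another annotated gene. Its promoter is shown because KIF17 was the kinesin gene with the largest decrease in each of the 3 knockdowns. The 250 bases before the RefSeq start (chr1:20718008-20718257, GRCh38.p14, minus strand, 5′ to 3′) carry no capitals since none of the 3 motifs searched is present: GGAATG, the core bound by the TEAD factors through which YAP and TAZ act, and TTTGAA and CCAAT, elements of many G2 and M phase promoters, each on either strand.

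KIF17: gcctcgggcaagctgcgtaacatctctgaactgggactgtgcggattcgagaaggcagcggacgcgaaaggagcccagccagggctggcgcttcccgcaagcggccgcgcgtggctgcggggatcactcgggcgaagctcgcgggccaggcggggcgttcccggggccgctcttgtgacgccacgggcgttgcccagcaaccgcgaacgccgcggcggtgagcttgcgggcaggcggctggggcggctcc

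The letters GGAATG or its reverse complement stand in 11.9% of the 35116 RefSeq promoters of this length. Absence from this window says nothing about sites elsewhere at the locus.

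Among the transport kinesins, KIF3C and KIF13B rose in the co-knockdown while KIF17 fell, and the other 9 did not pass the test. 3 of 12 changed at an adjusted p of at most 0.05, where 18.4% of all genes did, 9.97% higher and 8.39% lower. KIF3C is a kinesin-2 subunit that pairs with KIF3A. The siControl libraries had 807.2, 808.2 and 773.5 normalized counts of it and the siYAP+TAZ libraries 1234, 1249 and 1352, with the Control libraries at 654.4, 746.1 and 833.6. All 3 co-knockdown libraries lay above the 12 others, of which the highest was siYAP 28 at 975.6. The log2 fold change was 0.68 (SE 0.09, adjusted p = 3e-05), a 1.61-fold increase.

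KIF13B is a plus-end motor that carries scaffold proteins and receptor cargo to the membrane. It had 658.3, 622.3 and 587.9 normalized counts in the siControl libraries and 920.3, 1080 and 1065 in the siYAP+TAZ libraries. Again no other library reached the co-knockdown group, and the highest of the rest was siYAP 23 at 778.8. The log2 fold change was 0.71 (SE 0.09, adjusted p = 3.1e-05), a 1.64-fold increase. Both calls held when any 1 library was left out and under each of the other settings tried.

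KIF3C and KIF13B were also higher in siYAP+TAZ than in each single knockdown. Against siYAP the log2 differences were 0.52 (SE 0.09, adjusted p = 0.0016) for KIF3C and 0.55 (SE 0.09, adjusted p = 0.0015) for KIF13B. They were the only 2 kinesin genes that changed in that comparison, where 5.13% of all genes did. Against siTAZ they were 0.45 (SE 0.09, adjusted p = 0.0051) and 0.47 (SE 0.09, adjusted p = 0.0053). In siYAP alone neither passed against siControl (KIF3C 0.17, adjusted p = 0.47, and KIF13B 0.17, adjusted p = 0.50), nor in siTAZ alone (0.23 and 0.24, adjusted p = 0.18 for both). Their interactions of 0.28 (SE 0.12) and 0.30 (SE 0.13) did not pass either (adjusted p = 0.80 and 0.79).

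**Figure D2:**
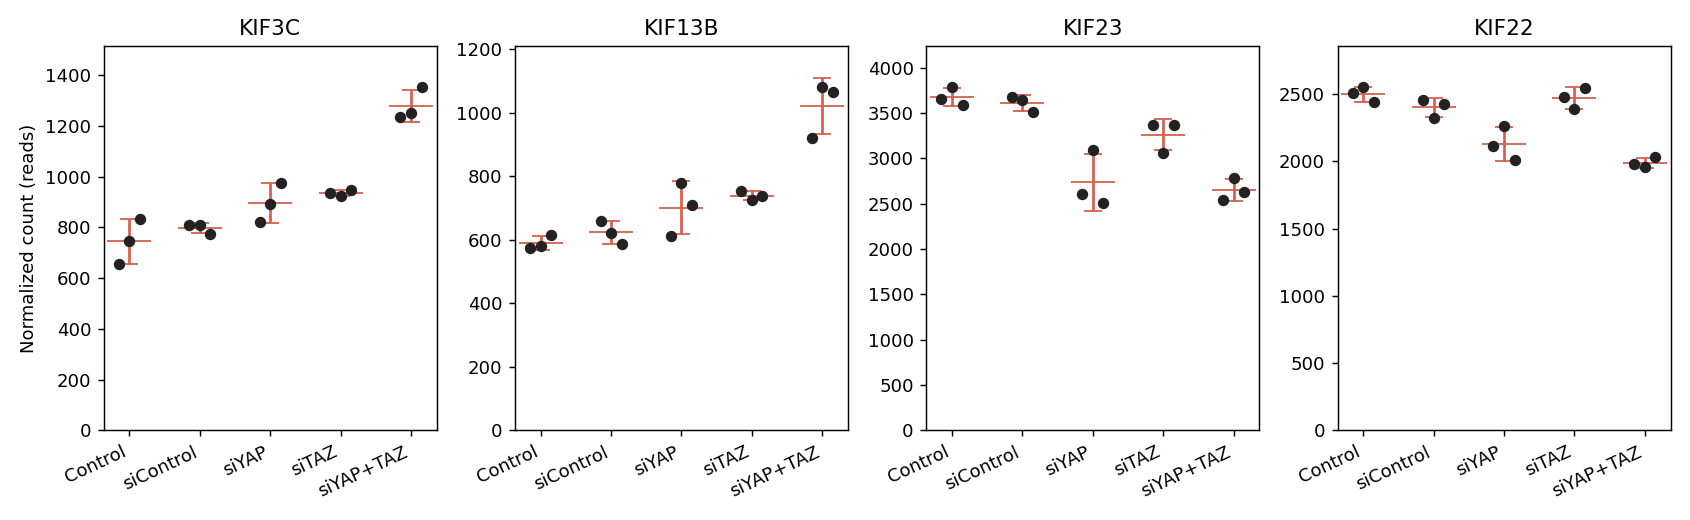
Normalized counts (y axes, reads divided by the library size factor, from 0) of KIF3C, KIF13B, KIF23 and KIF22 in each library (points), with the mean and SD of each group of 3 (bars). The siYAP+TAZ libraries lie above all others for KIF3C (1234 to 1352) and KIF13B (920.3 to 1080), whereas for KIF23 they share their range with siYAP and for KIF22 2 of the 3 lie below every other library.

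The remaining partners of the kinesin-2 motors did not follow KIF17. KIF3A had a log2 fold change of 0.32 in siYAP+TAZ (SE 0.12, adjusted p = 0.082) and KIF3B of 0.11 (SE 0.08, adjusted p = 0.36). KIFAP3, the non-motor subunit that holds the KIF3 motors together, rose by 0.31 (SE 0.10, adjusted p = 0.031), a call lost without siYAP+TAZ 20, siControl 22, siYAP+TAZ 25 or siControl 27, against Control, and with only the groups compared in the fit. The most abundant transport motors were slightly lower without passing by edgeR against siControl, unless a replicate block was fitted. KIF5B had -0.20 (SE 0.08, adjusted p = 0.11), KIF1C -0.22 (SE 0.08, adjusted p = 0.056) and KIFC3, a minus-end motor at cell junctions, -0.22 (SE 0.08, adjusted p = 0.057). DESeq2 called KIF1C and KIFC3, for 12 changed kinesins in place of 10, and so did edgeR against Control, for 14. A replicate block built from runs of consecutive library numbers gave calls for KIF5B, KIF1C and KIFC3, for 17. Summed, the 12 transport members took 1487 to 1533 CPM (reads scaled to the library size with its TMM factor) in siControl, 1338 to 1486 in siYAP+TAZ and 1323 to 1423 in siYAP. Both ranges lay below siControl, that of siYAP+TAZ only just, and overlapped the untransfected Control range of 1409 to 1588. The sum over all genes on this scale is fixed by the TMM factors and is not a measure of expression. It was also wholly lower in these groups, at 977800 to 992800 in siYAP+TAZ and 975500 to 984900 in siYAP against 993400 to 1039000 in siControl.

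With either single pool KIF17 was the only transport kinesin that changed against siControl by edgeR without a replicate block. Against Control KIF3C and KIF13A also changed in siTAZ. With the block KIF5B and KIFC3 also changed in siYAP, and KIF3C, KIF3A and KIF3B in siTAZ. In siTAZ without the block, KIF3A (0.31), KIF3B (0.22), KIF13A (0.23) and KIF1B (0.20) were higher without passing (adjusted p between 0.16 and 0.30). The median log2 fold change over the 12 transport members was 0.12 in the co-knockdown, -0.03 with siYAP and 0.16 with siTAZ, beside -0.0048, 0.0025 and 0 over all genes.

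**Figure D3:**
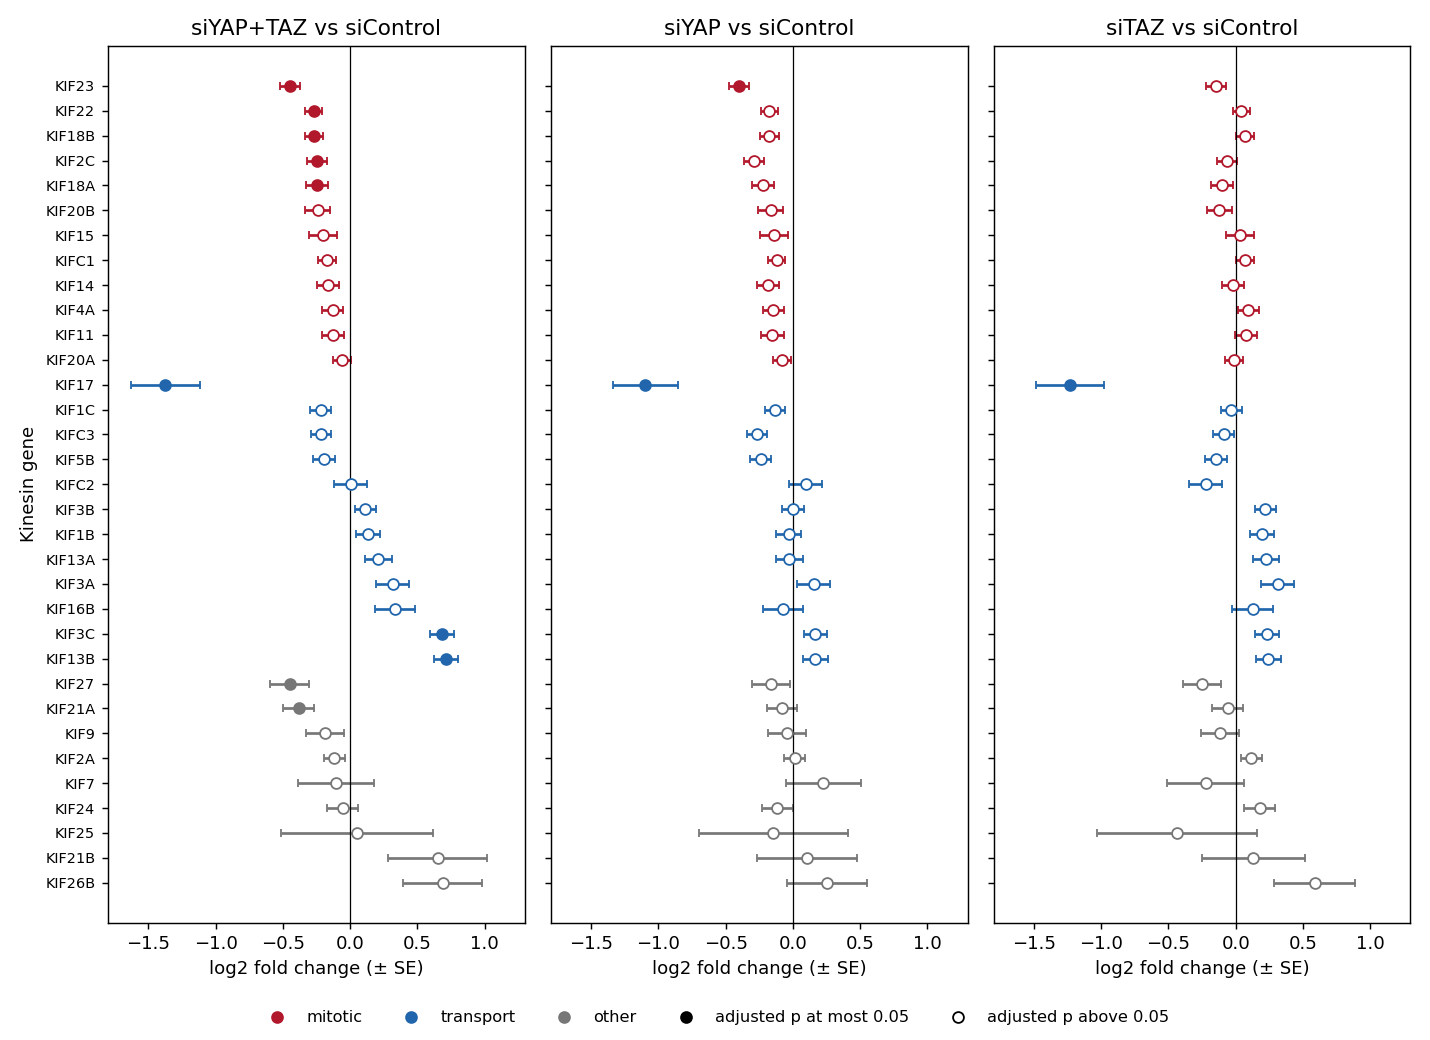
Log2 fold change against siControl with its SE (x axes) of the 33 kinesin genes (y axis, by class and by value in siYAP+TAZ) in the 3 knockdowns. Filled points passed an adjusted p of 0.05, 10 after co-knockdown, 2 with siYAP and 1 with siTAZ, and KIF17 is the lowest of the 33 in every panel.

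Of the 12 mitotic kinesins 5 changed in the co-knockdown, each lower by a small amount, and the list as a whole was not tested. All 12 had a negative log2 fold change in siYAP+TAZ, between -0.45 and -0.06 with a median of -0.22. Each of the 12 averaged over 1000 normalized counts, and among the 5079 genes at that level 62.1% were negative and 19.9% changed downwards, against 8.39% of all genes, so the count of 5 in 12 is best read beside the 19.9% (a background chosen after the values were seen). In 8 of the 12 the siYAP+TAZ libraries all lay below the siControl libraries, which was so for 35% of the genes at that level and 18.2% of all genes.

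KIF23, the motor subunit of centralspindlin that organises the midzone for cytokinesis, had the largest decrease of them. It had 3675, 3641 and 3511 normalized counts in the siControl libraries, and 2546, 2781 and 2625 after co-knockdown. The siYAP libraries, at 2610, 3091 and 2507, covered the co-knockdown range, and the siTAZ libraries, at 3364, 3061 and 3364, lay between. The log2 fold change was -0.45 in siYAP+TAZ (SE 0.08, adjusted p = 0.00049) and -0.40 in siYAP (SE 0.08, adjusted p = 0.015). KIF23 and KIF17 were the 2 kinesin genes that changed in siYAP, where 0.933% of all genes did. The siYAP call of KIF23 was kept without siYAP 23 or siControl 27, and lost without siControl 17, siControl 22, siYAP 18 or siYAP 28. In siTAZ its value was -0.15 (SE 0.08, adjusted p = 0.37), and KIF17 alone changed there, where 2.03% of all genes did.

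KIF22, a chromokinesin that pushes chromosome arms, had 2455, 2322 and 2423 normalized counts in siControl and 1979, 1957 and 2031 in siYAP+TAZ (log2 fold change -0.27, SE 0.06, adjusted p = 0.0056). KIF18B, which shortens astral microtubules, had 3403, 3484 and 3802 in siControl and 2926, 3014 and 2931 in siYAP+TAZ (-0.27, SE 0.07, adjusted p = 0.011), and its call was lost without siControl 27. Neither group overlapped the other for these genes. KIF2C had -0.25 (SE 0.07, adjusted p = 0.024) and KIF18A, which damps chromosome movements at metaphase, -0.25 (SE 0.08, adjusted p = 0.040). The KIF18A call was lost whichever of the 6 libraries compared was left out, and against Control. That of KIF2C was lost without siControl 17, siYAP+TAZ 20, siControl 27 or siYAP+TAZ 30. KIF23 and KIF22 kept theirs in all 6 cases.

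The mitotic motors that did not pass had log2 fold changes between -0.24 and -0.06 in siYAP+TAZ. KIFC1, the most abundant, had -0.17 (SE 0.07, adjusted p = 0.082). KIF11, which slides spindle poles apart, had -0.12 (SE 0.08, adjusted p = 0.35), and KIF20A, a cytokinesis motor that brings Aurora B to the midzone, -0.06 (SE 0.07, adjusted p = 0.61). Some of the KIFC1 reads may belong elsewhere, since 12.6% of its 50-base stretches recur in other annotated genes and 14.0% of its exonic bases lie opposite the exon of a pseudogene, and whether strand was used in counting is not given in the sources used here.

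In siYAP all 12 mitotic kinesins were again negative, with a median log2 fold change of -0.17, beside 65.5% negative among the genes of at least 1000 normalized counts. Only KIF23 of them passed by edgeR against siControl without a replicate block, and DESeq2 called KIF2C as well. Against Control edgeR also called KIF2C and KIF18B, and with the block KIF2C and KIF18A. In siTAZ 6 were negative and 6 positive, with a median of 0.01, and none passed by edgeR's quasi-likelihood test. None had an unadjusted edgeR p under 0.05 there, beside 16% of all genes, and 2.03% of all genes changed. DESeq2 and limma-voom also called none of the 12. By library, the median log2 difference of the 12 genes from the siControl mean was -0.25, -0.05 and -0.25 in siYAP 18, 23 and 28, and -0.28, -0.18 and -0.18 in siYAP+TAZ 20, 25 and 30. The siControl libraries ranged from -0.03 to 0.04 and the siTAZ libraries from -0.02 to 0.05. siYAP 23, with the smallest shift, is also the siYAP library in which YAP1 stood at 64.0%, and the part of knockdown strength in the shift was not tested.

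**Figure D4:**
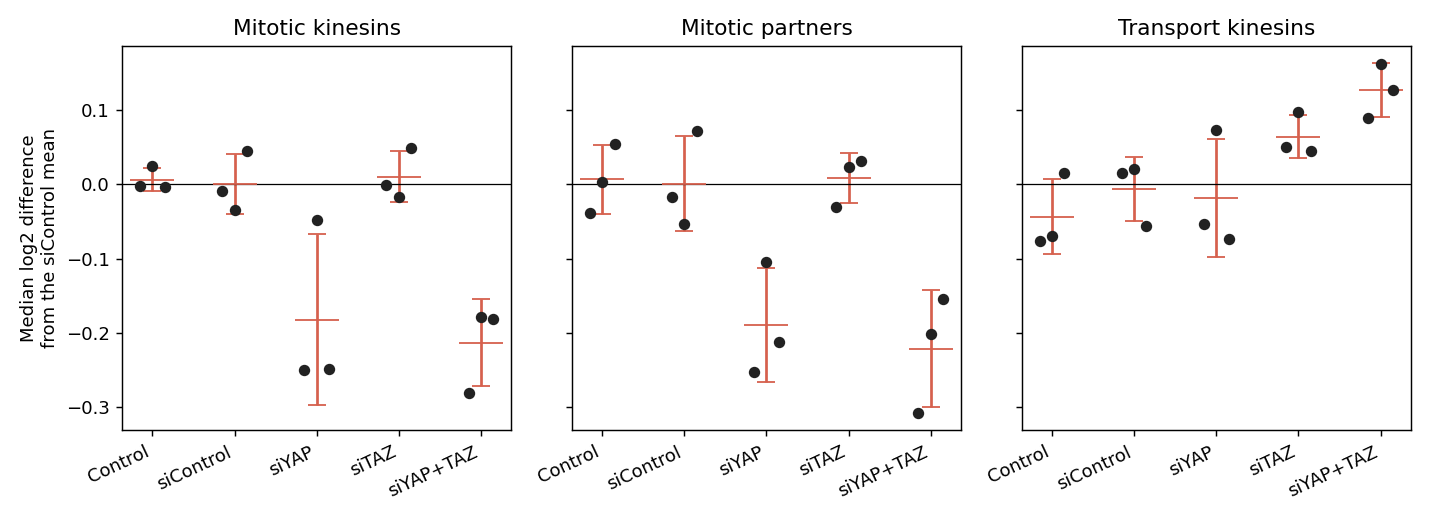
Median log2 difference from the siControl mean (y axis) over the 12 mitotic kinesins, their 14 mitotic partners and the 12 transport kinesins, by library (points), with the mean and SD of each group of 3 (bars). The siYAP+TAZ libraries lie between -0.28 and -0.18, between -0.31 and -0.15, and between 0.09 and 0.16 in the 3 panels.

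By the median over members the mitotic list was lower and the transport list higher in the co-knockdown, whereas the sums of both were lower than in siControl. The all-gene sum, which the TMM factors fix, was lower too. 4 of the 12 transport members were negative, the abundant KIF5B, KIF1C and KIFC3 among them, and the 2 lists were not tested against each other. The transport medians by library were 0.09, 0.16 and 0.13 in siYAP+TAZ 20, 25 and 30, above the mitotic median of the same library each time. The mitotic members took 47.8% to 48.9% of the kinesin reads in siControl, 46.0% to 46.7% in siYAP+TAZ, 46.6% to 48.4% in siYAP and 48.3% to 49.2% in siTAZ. The Control libraries ranged from 47.3% to 50.3%, a wider spread than any other group. Summed over the list, mitotic kinesins took 1520 to 1597 CPM in siControl, 1271 to 1374 in siYAP+TAZ and 1307 to 1465 in siYAP. Both knockdown ranges lie below those of siControl and of Control (1550 to 1601). The means were 1550, 1338 and 1360 in siControl, siYAP+TAZ and siYAP. The all-gene sums, fixed by the TMM factors, were lower too, with means of 1015000, 983800 and 980700.

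Against siTAZ alone, 6 kinesin genes changed in siYAP+TAZ, where 5.44% of all genes did. KIF3C and KIF13B were higher, and the mitotic KIF18B (-0.34, SE 0.07, adjusted p = 0.0079), KIF22 (-0.31, SE 0.06, adjusted p = 0.0074), KIF23 (-0.30, SE 0.08, adjusted p = 0.028) and KIFC1 (-0.24, SE 0.07, adjusted p = 0.041) were lower. Among genes of at least 1000 normalized counts 5.57% were changed and lower in this comparison. KIFC1 was lost whichever of the 6 libraries compared was left out, KIF23 in each case but that of siTAZ 24, and KIF18B without siTAZ 24. KIFC1 and KIF23 were also lost with library size alone and with only the groups compared in the fit. Against siYAP no mitotic kinesin passed by edgeR, where 5.13% of all genes did. None had an unadjusted edgeR p under 0.05, beside 19.2% of all genes. DESeq2 and limma-voom called none there either. Their log2 differences between siYAP+TAZ and siYAP lay between -0.10 and 0.04.

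The promoters of KIF23, KIF18B and KIF18A are shown as examples of the mitotic members that changed, and those of KIF22 and KIF2C are not shown. Each run gives the 250 bases before the RefSeq start (GRCh38.p14), 5′ to 3′ on the gene's strand, and capitals mark CCAAT (or ATTGG, its reverse complement) and TTTGAA. KIF23 is at chr15:69414099-69414348 on the plus strand, KIF18B at chr17:44947774-44948023 and KIF18A at chr11:28108157-28108406, both on the minus strand.
KIF23: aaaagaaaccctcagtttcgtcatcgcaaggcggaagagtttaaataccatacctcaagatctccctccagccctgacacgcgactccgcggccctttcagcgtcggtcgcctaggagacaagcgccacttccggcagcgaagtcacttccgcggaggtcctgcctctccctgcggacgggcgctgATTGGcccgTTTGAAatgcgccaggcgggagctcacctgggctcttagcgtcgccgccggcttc
KIF18B: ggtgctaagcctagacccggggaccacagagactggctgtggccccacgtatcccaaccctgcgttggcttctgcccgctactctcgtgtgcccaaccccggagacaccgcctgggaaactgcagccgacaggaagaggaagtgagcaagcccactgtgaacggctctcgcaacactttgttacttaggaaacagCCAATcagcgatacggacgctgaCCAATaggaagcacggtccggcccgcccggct
KIF18A: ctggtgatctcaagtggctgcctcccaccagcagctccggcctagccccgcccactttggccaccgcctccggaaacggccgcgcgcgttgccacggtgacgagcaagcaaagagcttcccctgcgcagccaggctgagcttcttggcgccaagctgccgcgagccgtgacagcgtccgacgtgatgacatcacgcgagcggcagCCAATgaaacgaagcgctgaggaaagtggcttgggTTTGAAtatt

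A CCAAT match stands in the window of 10 of the 12 mitotic kinesins, in 3 of the 9 transport kinesins with an entry and in 32.0% of all promoters of this length. TTTGAA stands in 5 of the 12 mitotic windows (KIF11, KIF15, KIF18A, KIF23 and KIF4A), in 1 of 9 transport windows (KIF5B) and in 13.3% of all. GGAATG stands in the windows of KIF2C and KIF3A alone, 2 of the 27 kinesin genes with an entry, beside 11.9% of all. KIF18B holds CCAAT in 2 places and no TTTGAA, KIF22 holds CCAAT without TTTGAA, and KIF2C, which also changed, holds neither. Members that moved alike thus did not share every match. A match is a run of letters and not a measured binding site.

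Among the 9 other kinesins, KIF21A and KIF27 fell in the co-knockdown and the rest did not pass, a share near the 18.4% of all genes that changed (8.39% lower). KIF21A restrains microtubule growth at the cell cortex. It had 443.1, 500.2 and 360.5 normalized counts in the siControl libraries, and 315.1, 328.7 and 357.0 after co-knockdown. The lowest siControl library, siControl 27, lay just above the highest co-knockdown library, siYAP+TAZ 30. The log2 fold change was -0.38 (SE 0.12, adjusted p = 0.028), and the call was lost without siControl 17, siYAP+TAZ 20, siControl 22 or siYAP+TAZ 25, with library size alone and with only the groups compared in the fit.

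KIF27, a relative of the Hedgehog regulator KIF7 with a role in motile cilia, had 213.5, 207.1 and 180.2 normalized counts in siControl and 140.3, 146.1 and 154.2 in siYAP+TAZ (log2 fold change -0.45, SE 0.14, adjusted p = 0.037). Its groups did not overlap, but the Control libraries reached down to 170.9. The call was lost with each library left out except siControl 27. Of its 50-base stretches 24.4% recur in other annotated genes, so part of its count is uncertain. KIF2A, a microtubule depolymerase and the most abundant of the 9, had -0.12 (SE 0.08, adjusted p = 0.34), and KIF24, which acts at centrioles, -0.05 (SE 0.12, adjusted p = 0.80). In KIF2A 18.7% of the exonic bases lie opposite another gene. KIF26B, at 23.8, 18.5 and 24.7 normalized counts in siControl and 35.7, 36.5 and 35.8 in siYAP+TAZ, did not overlap between the groups, yet at this depth its log2 fold change of 0.69 (SE 0.30) did not pass (adjusted p = 0.12).

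No kinesin gene changed between siControl and Control by edgeR, where 0 of the 18858 genes did and 2.11% had an unadjusted p under 0.05. None of the 33 members had an unadjusted p under 0.05 there. Their log2 fold changes lay between -0.26 and 0.19. For the interaction no member passed, beside 0.0106% of all genes, and 4 of the 33 had an unadjusted p under 0.05, beside 5.85% of all genes, namely KIF17, KIF13B, KIF3C and KIF2A (-0.25, SE 0.11).

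Of 18 adaptors and regulators of kinesins 5 changed in siYAP+TAZ, beside 18.4% of all genes. The count was 3 against Control and 1 to 4 with a library left out, 1 without siYAP+TAZ 20 or siYAP+TAZ 25, 2 without siControl 22 or siControl 27, and 3 without siYAP+TAZ 30. KLC3 and KLC4, light chains that link conventional kinesin to cargo, went opposite ways. KLC4 had 331.7, 319.0 and 240.3 normalized counts in siControl and 464.9, 528.5 and 458.8 in siYAP+TAZ (log2 fold change 0.70, SE 0.13, adjusted p = 0.0010), and it kept the call under every setting tried. KLC3 had 84.2, 86.0 and 77.2 in siControl and 39.2, 48.3 and 60.6 in siYAP+TAZ (-0.73, SE 0.22, adjusted p = 0.028), a call lost without siControl 17, siYAP+TAZ 20, siControl 22 or siYAP+TAZ 25. Neither light chain overlapped between the groups, as was so for 18.2% of all genes in each direction.

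MAPK8IP2, a scaffold that links stress kinases to kinesin, had 11.1, 12.9 and 4.29 normalized counts in siControl and 26.2, 23.6 and 26.6 in siYAP+TAZ (1.39, SE 0.45, adjusted p = 0.037). Its count is low, and among the libraries left out the call was kept only without siControl 22, and it was also lost against Control. RHOT2, a mitochondrial anchor for transport motors, fell by 0.27 (SE 0.09, adjusted p = 0.045), a call lost in 11 of the 15 other fits, among them DESeq2, limma-voom, all other scalings and filters, and each library left out except siControl 17. With KIFAP3 these are the 5. The median of the 18 was 0.11, with 13 positive, and in siYAP and in siTAZ none passed by edgeR. There 3 each had an unadjusted p under 0.05, beside 11.9% and 16% of all genes.

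All 14 mitotic partners were negative in siYAP+TAZ, with a median of -0.24, and 6 changed, each lower. All but 1 of the 14 averaged at least 1000 normalized counts, a level at which 62.1% of genes were negative and 19.9% changed downwards. The count was 3 without siYAP+TAZ 20 and 9 against Control. AURKB and CDCA8 of the chromosomal passenger complex had -0.36 (SE 0.07, adjusted p = 0.0021) and -0.39 (SE 0.08, adjusted p = 0.0027), and CCNB1, the cyclin that starts mitosis, -0.29 (SE 0.06, adjusted p = 0.0031). These 3 kept the call whichever library was left out. TPX2 (-0.27) was lost without siYAP+TAZ 20, and AURKA (-0.26) and ECT2 (-0.24) without 4 of the 6 libraries, siControl 17, siYAP+TAZ 20 and siYAP+TAZ 30 for both, with siControl 27 for AURKA and siControl 22 for ECT2. AURKA was also lost against Control and ECT2 with library size alone. CENPE, a kinetochore kinesin outside the symbol rule, had -0.19 (SE 0.09, adjusted p = 0.17) and MKI67 -0.13 (SE 0.07, adjusted p = 0.19). The partners moved with the mitotic kinesins by library too, at -0.25, -0.10 and -0.21 in siYAP 18, 23 and 28 and -0.31, -0.20 and -0.15 in siYAP+TAZ 20, 25 and 30, and their part in the kinesin values was not tested.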

How the data were processed

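Poly(A) RNA of MDA-MB-231 cells was sequenced as single reads, in 5 groups of 3 libraries. Per the labels and the methods, the authors trimmed reads with cutadapt within the UTAP pipeline, mapped them to GRCh38 with STAR 2.4.2a and GENCODE 34, and deposited raw counts per gene for genes with at least 5 reads in 1 sample. Whether strand was used is not given in the sources used here. The deposited normalized values are a signal, the count divided by a DESeq2 size factor, and the deposited rlog values are log2. The normalized counts printed here are not the deposited ones. Each is the raw count divided by the library total times its TMM factor, scaled to the mean of these products. The deposited normalized and rlog columns and 70 columns with the authors' own fold changes and p-values were not used.

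From the counts of all 18858 genes, edgeR 4.0.16 (R 4.3.3) was run with TMM factors, a coefficient per group over all 15 libraries and the robust two-sided quasi-likelihood test, with Benjamini-Hochberg adjustment over all genes. Changed means an adjusted p of at most 0.05, differentially expressed also a log2 fold change of 1 or more in size. Intervals are 95%. TMM factors were 0.943 to 1.03. Other fits used DESeq2 1.42.0 as the methods set it, limma-voom (limma 3.58.1), other scalings and filters, other groups and each library left out. Scripts were tested on simulated counts.

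The members and lists were chosen with earlier results of these data known. Genes named were YAP1, WWTR1, KIF17, members called in a knockdown and the 3 most abundant of each class. Further genes named (such as KIF3A, KIF26B, the adaptors, the partners and neighbours) were chosen after their values were seen. Locations, overlaps and repeated stretches come from GENCODE 44 and GRCh38, and 27 of 33 members matched the RefSeq promoter table.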

Additional observations from a re-analysis of the deposited data

How the results depend on the processing

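The direction of the mitotic kinesins did not depend on the settings: all 12 were negative in siYAP+TAZ and in siYAP in each of the 15 other fits. KIF17, KIF23, KIF22, KIF3C and KIF13B kept their siYAP+TAZ calls in all 15. Scaling by library size alone gave 6 changed kinesins in siYAP+TAZ in place of 10, losing KIF2C, KIF27, KIF18A and KIF21A. It gave 1 changed and 0 differentially expressed in siYAP, where KIF17 reached an adjusted p of 0.052, and a transport median of 0.17 in siYAP+TAZ. With only the groups compared in the fit, siYAP had 1 changed kinesin, KIF17. With Control as the reference, 4 changed in siYAP and 3 in siTAZ, and the siTAZ medians were -0.035 for mitotic and 0.21 for transport kinesins.

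With 1 library left out, siYAP+TAZ had 6 to 8 changed kinesins, siYAP 0 to 1 with 0 differentially expressed, and siTAZ 0 to 1 by either rule. The siYAP+TAZ medians ranged from -0.24 to -0.16 (mitotic) and 0.081 to 0.18 (transport), and those of siTAZ from -0.029 to 0.031 and from 0.09 to 0.21. The cause of these moves was not tested beyond the smaller number of libraries.

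Signs turned in some values near 0. The transport median in siYAP ranged from -0.074 to 0.043 over the other fits, with 5 to 8 of its 12 members negative. KIF24 in siYAP+TAZ ranged from -0.11 to 0.026 when a library was left out, and KIF17 between siControl and Control from -0.078 to 0.19 and between siYAP+TAZ and siTAZ from -0.55 to 0.16. WWTR1 in siYAP was 0.033 with library size alone, 0.0027 with at least 10 reads in 3 libraries, 0.0039 with filterByExpr, 0.15 against Control and -0.10 to 0.14 with a library left out. Against Control, KIF22 and KIF18B in siTAZ were -0.016 and -0.062.

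The labels give the groups no shared replicate numbers and tie no library to a set of experiments. Libraries of one run of consecutive numbers often deviated together: in 26 of 30 pairs of different groups the deviations from the group means correlated above 0.1 across genes (median 0.47, lowest -0.07). Between different runs 18 of 60 pairs did (median -0.40, highest 0.53), values that are lowered because deviations cancel within a group. 11 of 15 libraries were closest to their own run. Pairing was thus not established for every library. A replicate block built from these runs kept all calls made without it and gave 17 changed kinesins in siYAP+TAZ (gaining KIF3A, KIF13A, KIFC1, KIF5B, KIF20B, KIFC3 and KIF1C), 6 in siYAP (KIF2C, KIF5B, KIF18A, KIFC3), 4 in siTAZ (KIF3C, KIF3A, KIF3B), 5 between siYAP+TAZ and siYAP (KIF13A, KIF21A, KIF16B) and 11 between siYAP+TAZ and siTAZ (KIF2A, KIF11, KIF21A, KIF1C, KIF4A). It also gave 8 changed adaptors and 10 changed mitotic partners in siYAP+TAZ. Depth limits KIF17, KIF21B, KIF26B and KIF25, each with a mean under 100 normalized counts.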

Other observations

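SH2D5, the gene next to KIF17 on the same strand, lies 1714 bases upstream of the KIF17 start and was also lower in the co-knockdown. It was looked at because of its place and after its values were seen. Its log2 fold change was -0.98 in siYAP+TAZ (SE 0.17, adjusted p = 0.0011), a call kept in all 15 other fits, -0.36 in siYAP (SE 0.17, adjusted p = 0.41) and -0.51 in siTAZ (SE 0.17, adjusted p = 0.14). KIF17 by contrast passed in all 3 knockdowns, although the difference between the genes was not tested. The next genes on either side did not pass in siYAP+TAZ: DDOST had 0.02, PINK1 0.16 and HP1BP3 0.0047. SH2D5 encodes an SH2 domain adaptor best known from brain.

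Beside KIF13B, which rose in the co-knockdown, DUSP4, a phosphatase of MAP kinases 69940 bases away, rose by 0.66 (SE 0.18, adjusted p = 0.022), a call lost without siYAP+TAZ 20, siYAP+TAZ 25 or siControl 27. HMBOX1, 2514 bases away on the other side, had 0.27 (SE 0.16, adjusted p = 0.26). Farther out, SARAF, 799879 bases from KIF13B on the side of DUSP4, rose by 0.41 (SE 0.11, adjusted p = 0.011), a call lost without siControl 27, and INTS9 on the side of HMBOX1 had 0.0042 (adjusted p = 0.98). The nearest measured neighbours of KIF3C, ASXL2 and RAB10, had 0.02 and 0.07 and did not pass (adjusted p = 0.91 and 0.59), nor did the next ones, DTNB (-0.40, adjusted p = 0.14) and GAREM2 (-0.10, adjusted p = 0.87).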
